A study of Homo sapiens with 6 samples.

Results

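The genes described here are the liver's secreted coagulation and complement factors with their inhibitors and regulators, 50 genes of the 20422 in the count table. They were taken from a list of symbols (coagulation factors, anticoagulants, fibrinolysis and complement, with fibrinogen left out), and each was matched to its row by the stable part of the Ensembl identifier. All 50 were found, and 44 of them passed the filter on low counts and were tested.

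The study sequenced RNA of HepG2, an established human liver cancer line, with 3 control libraries (NC) and 3 from cells made to express APPLE, a microprotein encoded by the lncRNA ASH1L-AS1, with a Flag tag (ORF-Flag). The sample labels describe HepG2 given vector plasmids (NC) or the overexpression plasmid (ORF-Flag), whereas the study's methods describe stable lines made with lentiviral vectors and puromycin. Nothing says that the 3 libraries of a group came from separate cultures, so the p-values measure the spread between these samples, which may be technical. The NC libraries held 20081203, 24907524 and 30088457 counts, in the order of their replicate numbers, and the ORF-Flag libraries 26866148, 17494668 and 27015836, so that 3 counts stand for between 0.1 and 0.172 in the normalized unit used below (CPM).

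Hepatocytes make most of the proteins of both systems and secrete them into plasma as inactive precursors. In coagulation, tissue factor with factor VII starts a chain of serine proteases that ends in thrombin and fibrin, serpins and the protein C pathway restrain it, and plasmin later dissolves the clot. In complement, the classical, lectin and alternative pathways meet at the cleavage of C3 and end in a pore built from C5b to C9, while soluble and membrane-bound regulators protect the host's own cells.

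Of the 44 tested members, 5 had an adjusted p below 0.05 (edgeR's quasi-likelihood test, Benjamini-Hochberg adjustment over 12386 tested genes), against 551 or 4.45% of all tested genes. TFPI, SERPIND1, CPB2 and C4BPA were higher in ORF-Flag and C8G was lower. Split by direction, this was 4 higher, where 2.47% of all tested genes were, and 1 lower, where 1.98% were. TFPI and SERPIND1 restrain coagulation, CPB2 restrains fibrinolysis, and C4BPA restrains complement, while C8G codes for a chain of the complement pore. The changes were small, between a fall by 0.33 and a rise of 0.27 on the log2 scale. The members' median log2 fold change was 0.04, beside a median of -0.00 over all tested genes. Of the 44 fold changes 27 were positive, beside 6133 of the 12386. In the roles outside complement 17 were positive and 5 negative, with a median of 0.07. In the complement roles 10 were positive and 12 negative, with a median of -0.01. The groups did not overlap in 13 of the 44, 10 higher and 3 lower in ORF-Flag, against 22.4% of all tested genes. When genes were called by an unadjusted p below 0.05 together with a fold change, up or down, of more than 1.2, the members called were 3 of the 44 (TFPI, C8G and C4A), against 4.54% of all tested genes. The count of 5 depended on single libraries: it was 2 without NC replicate 1, NC replicate 2, ORF-Flag replicate 1 or ORF-Flag replicate 2. Leaving out NC replicate 3 gave 7. Leaving out ORF-Flag replicate 3 gave 3, namely SERPIND1, TFPI and C4B. DESeq2 with all libraries also called 3, but these were SERPIND1, TFPI and C8G, against 3.46% of all tested genes. The share of all tested genes moved in the same fits, to 3.66%, 2.13%, 2.41% and 2.22% for the 4 libraries named first. It was 8.48% without NC replicate 3 and 1.6% without ORF-Flag replicate 3. The members' share, 11.4% with all 6 libraries, was 4.44%, 4.44%, 4.55%, 4.44%, 15.6% and 6.82% in the same order. Whether both shares moved alike was not tested. In bulk RNA, fewer cells that express a gene and less RNA per cell cannot be told apart.

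**Figure D1:**
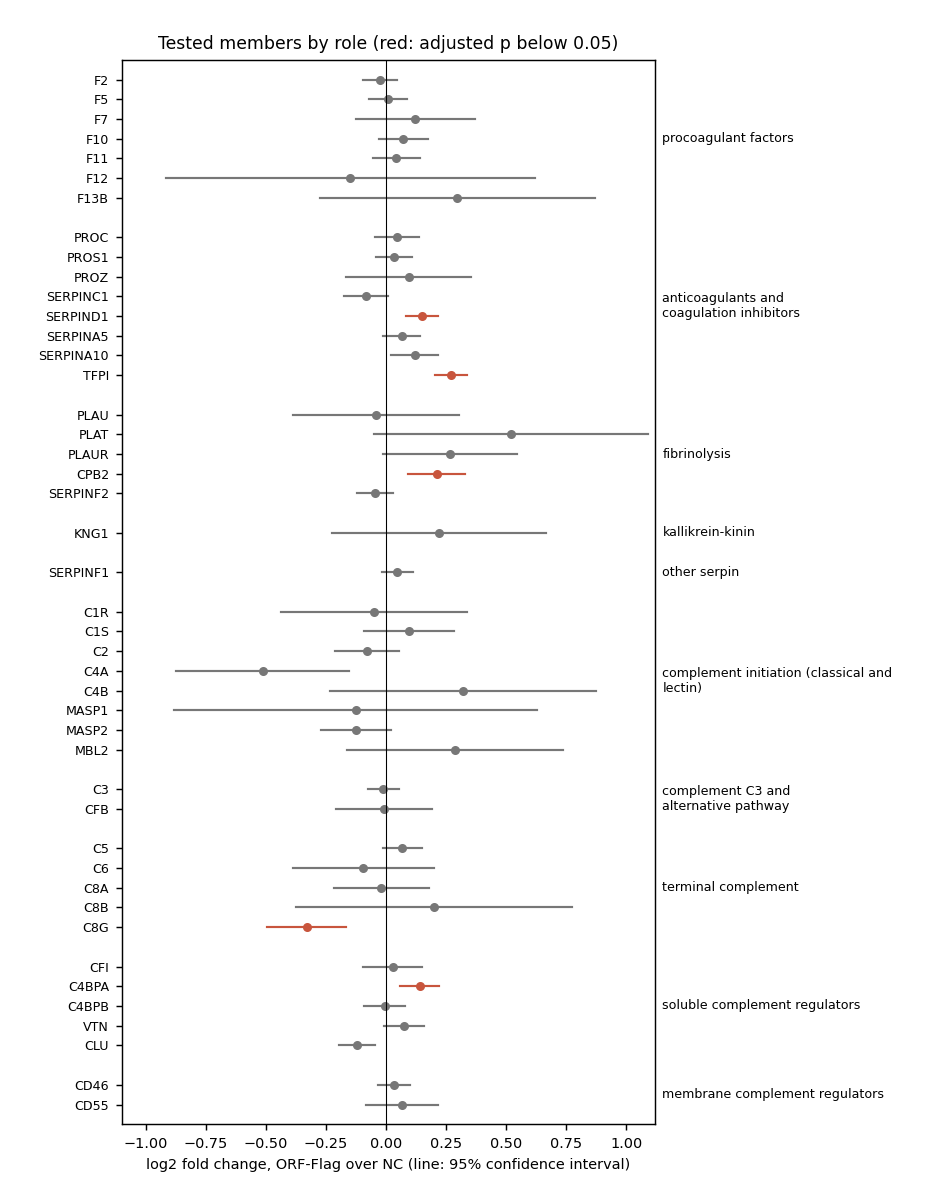
Log2 fold change of each of the 44 tested members (ORF-Flag over NC, 3 libraries each) with its 95% confidence interval, grouped by role; red marks an adjusted p below 0.05. The 5 red intervals lie clear of 0, as do those of SERPINA10, C4A and CLU, and the widest intervals belong to genes with few counts such as F12, MASP1 and PLAT, and to C4B.

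Levels between genes were compared as CPM per kb, with the length taken over all annotated exons of a gene. C3 had the highest level among the members, 212.0 CPM per kb, beside 167.2 for SERPIND1, 152.6 for SERPINF1, 117.6 for F2 and 64.0 for TFPI. The order below C3 depends on the length used: per kb of the longest coding transcript C3 had 335.5, SERPINF1 302.6, TFPI 192.9, SERPIND1 175.1 and F2 148.2 CPM. By the length of all exons, the median of the 44 tested members was 11.1 CPM per kb, beside 4.72 CPM per kb over 12345 tested genes with an annotated length, and 27 of the 44 lay above the latter. Together the 50 members took between 0.621% and 0.654% of all counts in a library. Their summed level was 6291, 6427 and 6240 CPM in NC and 6540, 6508 and 6514 CPM in ORF-Flag, a description with no test. Much of this difference came from TFPI, with group means of 679.6 CPM in NC and 819.4 CPM in ORF-Flag, and from SERPIND1, with 404.7 and 448.8 CPM. C3 had means of 1772 and 1759 CPM, and 17 of the 44 tested members had negative fold changes.

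**Figure D2:**
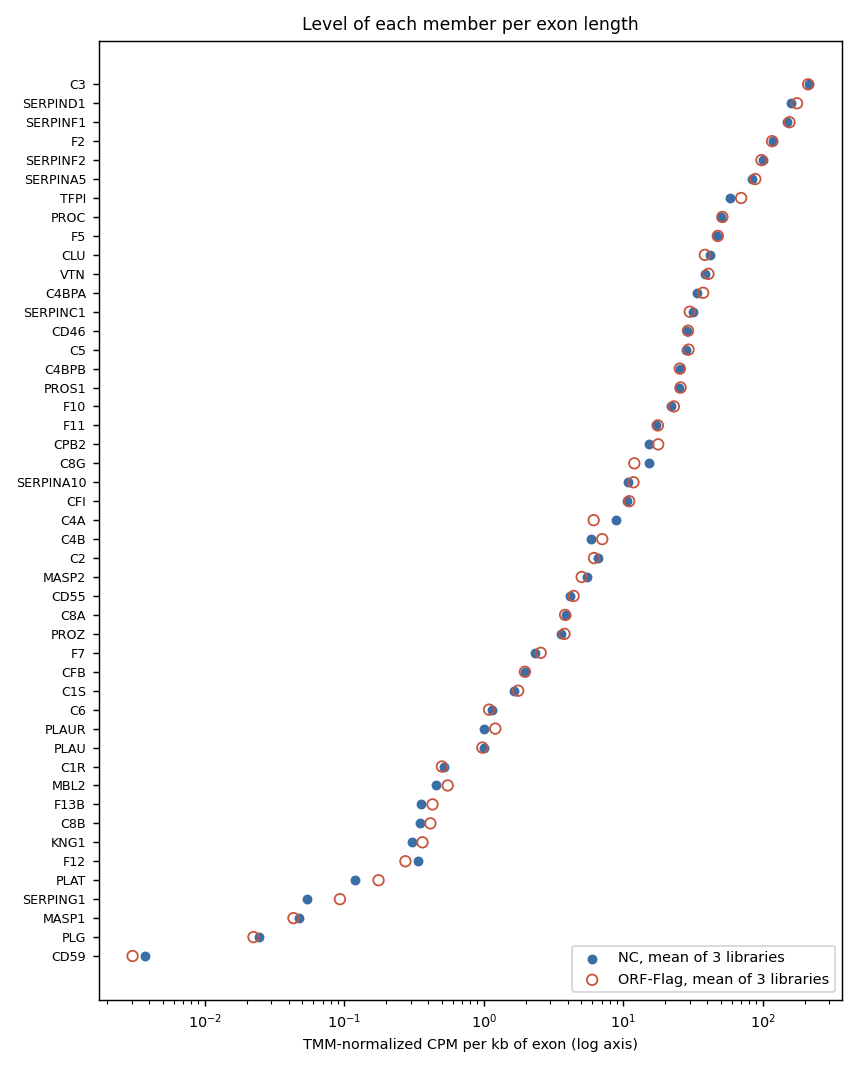
Level of each member as TMM-normalized CPM per kb of exon on a log axis, with filled circles for the NC mean and open circles for the ORF-Flag mean of 3 libraries each. The levels run from 212.8 (NC) and 211.2 (ORF-Flag) CPM per kb for C3 down to below 0.1 for MASP1, SERPING1, PLG and CD59; F9, KLKB1 and C9 had no count in at least 1 group and are not drawn.

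Among the inhibitors of coagulation, TFPI showed the clearest difference of the members. TFPI codes for tissue factor pathway inhibitor, which blocks the factor VIIa and tissue factor complex together with factor Xa, and the gene lies at chr2:187464230-187565760 (GRCh38, minus strand). Its level was 677.6, 671.8 and 689.3 CPM in the NC libraries and 801.4, 815.9 and 840.7 CPM in the ORF-Flag libraries. Every ORF-Flag library lay above every NC library, by more than the spread within either group. The means were 679.6 ± 8.92 (SD, n = 3) in NC and 819.4 ± 19.9 (SD, n = 3) in ORF-Flag. The log2 fold change was 0.27 (standard error 0.03, 95% confidence interval 0.20 to 0.34, adjusted p = 7.94e-06 with edgeR's quasi-likelihood test), a rise of 20.6%. TFPI was called under all 14 alternative fits, with adjusted p-values from edgeR, DESeq2 and limma between 9.38e-16 and 0.000313.

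SERPIND1 codes for heparin cofactor II, a serpin that inactivates thrombin, and lies at chr22:20773879-20787720 (GRCh38, plus strand). It stood at 390.2, 411.0 and 413.0 CPM in the NC libraries and at 452.6, 447.7 and 446.0 CPM in the ORF-Flag libraries. The ORF-Flag values differed little from each other, and the lowest of them was above the highest NC value. On the log2 scale SERPIND1 was higher by 0.15 ± 0.03 (standard error; adjusted p = 0.0086 with edgeR's quasi-likelihood test), a rise of 10.8%. Without ORF-Flag replicate 1 the edgeR adjusted p was 0.0534 and the call was lost.

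The remaining inhibitors were not called. SERPINA10, protein Z-dependent protease inhibitor, had a log2 fold change of 0.12 and an unadjusted p of 0.021 that did not pass adjustment (adjusted p = 0.175 with edgeR's quasi-likelihood test), and its groups did not overlap. Without NC replicate 3 its edgeR adjusted p was 0.0384, while leaving out NC replicate 1 lowered the estimate to 0.07 (edgeR adjusted p = 0.432). PROC (protein C), its cofactor PROS1 (protein S), PROZ (protein Z), SERPINC1 (antithrombin) and SERPINA5 (protein C inhibitor) had log2 fold changes between -0.08 and 0.09. SERPINC1 was the member of this role with a negative fold change, and its 3 ORF-Flag values, 53.2, 53.3 and 52.3 CPM, lay below the NC values of 55.6, 56.3 and 56.1 CPM. That difference had an adjusted p of 0.334 with edgeR's quasi-likelihood test. PROS1 shares 19.8% of the 31-base stretches of its longest coding transcript with other genes, mainly the pseudogene PROS2P, so its counts are uncertain.

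**Figure D3:**
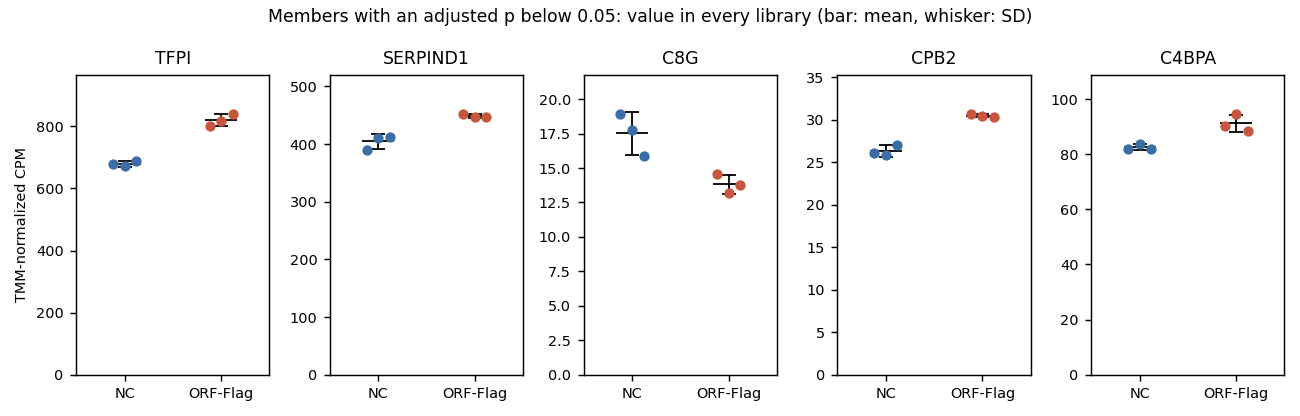
TMM-normalized CPM in each of the 6 libraries for the 5 members with an adjusted p below 0.05; points are libraries, bars are group means and whiskers the SD (n = 3), and every axis starts at 0. In each panel the 3 ORF-Flag points lie to one side of the 3 NC points, above them for TFPI, SERPIND1, CPB2 and C4BPA and below them for C8G.

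None of the 7 tested procoagulant factors was called by edgeR, and 0 had an unadjusted p below 0.05. The lowest adjusted p among them was 0.474 (edgeR's quasi-likelihood test). DESeq2, limma-trend and limma-voom called none of them either. F5, the cofactor that speeds thrombin formation by factor Xa, had the most counts of the role. It stood at 316.5, 353.2 and 345.2 CPM in NC and at 335.5, 354.3 and 331.7 CPM in ORF-Flag. The groups overlapped, and the log2 fold change was 0.01 (95% confidence interval -0.07 to 0.09, adjusted p = 0.949 with edgeR's quasi-likelihood test), with a sign that changed when NC replicate 1 or ORF-Flag replicate 2 was left out (-0.04 and -0.02). F2 (prothrombin), F7 (the protease that tissue factor binds), F10 (the protease that activates prothrombin), F11 (an amplifying protease), F12 (the protease that starts contact activation) and F13B (the carrier subunit of the fibrin crosslinker) had log2 fold changes between -0.15 and 0.30, those at either end being F12 and F13B with at most 38 counts in a library. F9, the protease missing in haemophilia B, was listed at 0 in all 6 libraries.

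Fibrinolysis held 1 called member of 5 tested. CPB2 codes for a plasma carboxypeptidase, known as TAFI, that trims the fibrin residues to which plasminogen binds, and lies at chr13:46053195-46105033 (GRCh38, minus strand). CPB2 was measured at 26.1, 25.9 and 27.1 CPM in NC and at 30.7, 30.4 and 30.3 CPM in ORF-Flag. All 3 ORF-Flag values were above the NC values, and the spread was small within both groups. CPB2 was higher by 0.21 ± 0.06 on the log2 scale (standard error; adjusted p = 0.0369 with edgeR's quasi-likelihood test), a rise of 15.7%. The call was lost with DESeq2 (adjusted p = 0.0759) and with edgeR without NC replicate 1, NC replicate 2 or ORF-Flag replicate 1, 2 or 3, where the adjusted p was 0.0602, 0.153, 0.115, 0.0998 and 0.126.

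SERPINF2, the alpha-2-antiplasmin serpin, had the most counts of the fibrinolysis genes, with 240.8, 245.4 and 225.3 CPM in NC and 228.6, 225.0 and 235.4 CPM in ORF-Flag. The groups overlapped, and the log2 fold change was -0.04 (adjusted p = 0.571 with edgeR's quasi-likelihood test). The plasminogen activators PLAU (urokinase) and PLAT (tissue-type activator) and the urokinase receptor PLAUR had few counts, at most 138 in a library. The groups overlapped for PLAU but not for PLAUR, which had a log2 fold change of 0.27 with a 95% confidence interval from -0.01 to 0.54 (adjusted p = 0.297 with edgeR's quasi-likelihood test), nor for PLAT. PLAT had the largest positive log2 fold change of the members, 0.52, with a 95% confidence interval from -0.05 to 1.09 at between 14 and 30 counts (adjusted p = 0.324 with edgeR's quasi-likelihood test). PLAU overlaps C10orf55 on the other strand, and the use of strand in counting is not stated. PLG, the plasmin precursor, had between 0 and 10 counts and was not tested.

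KNG1, the kininogen that carries bradykinin, was measured at 1.29, 1.36 and 1.67 CPM in NC and at 1.68, 1.72 and 1.70 CPM in ORF-Flag. The groups did not overlap, yet with 26 to 50 counts in a library the log2 fold change of 0.22 had a 95% confidence interval from -0.22 to 0.67 (adjusted p = 0.649 with edgeR's quasi-likelihood test). KLKB1, which codes for the prekallikrein that releases bradykinin, had at most 2 counts and was not tested. SERPINF1, a serpin that does not inhibit proteases and is also called pigment epithelium-derived factor, stood at 453.7, 465.2 and 463.4 CPM in NC and 489.4, 469.8 and 469.3 CPM in ORF-Flag. Its groups did not overlap, and the log2 fold change of 0.05 was not called (adjusted p = 0.464 with edgeR's quasi-likelihood test).

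In the classical and lectin pathways none of the 8 tested members was called by edgeR, DESeq2, limma-trend or limma-voom, and 1, C4A, had an unadjusted p below 0.05. C4A and C4B are neighbouring copies on chromosome 6 that code for complement C4, the substrate of C1s and MASP-2. Their longest coding transcripts in GENCODE 29, of 5460 and 5427 bases, differed by 13 substitutions and by 33 bases present in C4A alone. Of their 31-base stretches, 95.4% in C4A and 96.0% in C4B occur in another gene, mainly the other copy, so a short read can rarely be assigned to either gene. The stretches with the most differences are shown, because only reads over such bases can separate the copies; capitals mark the bases that differ. Positions are counted from 1 at the first base of the C4A transcript, and the stretches begin at base 3431 and base 3687 of it (chr6:31982024-32002681 for C4A and chr6:32014795-32035418 for C4B, GRCh38, plus strand).
C4A, first stretch: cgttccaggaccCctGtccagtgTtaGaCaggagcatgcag
C4B, first stretch: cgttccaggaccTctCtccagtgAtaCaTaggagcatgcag
C4A, second stretch: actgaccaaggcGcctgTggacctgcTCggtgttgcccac
C4B, second stretch: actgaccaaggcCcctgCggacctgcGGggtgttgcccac
Of the substitutions, the first stretch holds C3443T, G3446C, T3454A, G3457C and C3459T, written with the C4A base before the position and the C4B base after it.

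C4A was listed at 67.4, 89.3 and 34.7 CPM in NC and at 49.1, 41.1 and 42.1 CPM in ORF-Flag. NC replicate 3 was the lowest of the 6 libraries and NC replicate 2 the highest, so the groups overlapped. C4B was listed at 55.0, 38.4 and 33.0 CPM in NC and at 28.8, 28.1 and 95.1 CPM in ORF-Flag, where ORF-Flag replicate 3 stood far above the others. The log2 fold change was -0.51 for C4A (unadjusted p 0.0072, adjusted p = 0.098 with edgeR's quasi-likelihood test) and 0.32 for C4B (adjusted p = 0.583 with edgeR's quasi-likelihood test). Without NC replicate 3 that of C4A was -0.83 (edgeR adjusted p = 5.24e-11), yet without NC replicate 2 it was -0.18 (edgeR adjusted p = 0.613). Without ORF-Flag replicate 3 that of C4B turned to -0.55 (edgeR adjusted p = 0.0243). Without a filter on low counts edgeR called both genes, C4A at -0.52 (adjusted p = 3.25e-21) and C4B at 0.32 (adjusted p = 4.99e-07). The estimates hardly moved, but the standard errors were 0.05 for both genes, beside 0.17 and 0.27 in the main fit. These small standard errors stand against the wide scatter between libraries given above, so the 2 calls are not relied on. Summed as 1 gene, an alternative chosen after seeing the data, the pair had 122.5, 127.7 and 67.7 CPM in NC and 77.8, 69.3 and 137.2 CPM in ORF-Flag. The sum had a log2 fold change of -0.13 (adjusted p = 0.761 with edgeR's quasi-likelihood test), and C4A took between 30.7% and 69.9% of the pair's counts in a library. The cause of this scatter was not tested.

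**Figure D4:**
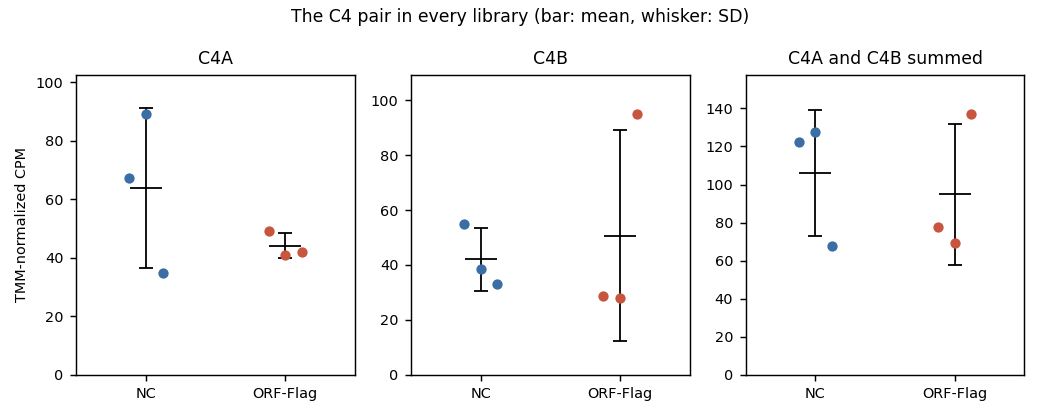
TMM-normalized CPM of C4A, of C4B and of their sum in each library; points are libraries, bars are group means and whiskers the SD (n = 3). The groups overlap in all 3 panels, and the sum runs from 67.7 to 127.7 CPM in NC and from 69.3 to 137.2 CPM in ORF-Flag.

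C1R and C1S, the proteases of the C1 complex, C2, the protease part of the C3 convertase, MASP1 and MASP2, the proteases of the lectin pathway, and MBL2, mannose-binding lectin, had log2 fold changes between -0.13 and 0.29. None had an unadjusted p below 0.05. MASP1 had between 10 and 19 counts and MBL2 between 29 and 56, so changes of the size seen in CPB2 could not have been told from the spread in them. C2 overlaps CFB and a locus that reads through both genes, AL645922.1, with which it shares 61.1% of its 31-base stretches, and C1R shares 24.6% with its neighbour C1RL, so these counts are uncertain.

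C3, the protein on which the 3 pathways meet, had the most counts of all members. It stood at 1789, 1799 and 1728 CPM in NC and at 1782, 1737 and 1758 CPM in ORF-Flag. The groups overlapped, and the log2 fold change was -0.01 with a 95% confidence interval from -0.08 to 0.05 (adjusted p = 0.905 with edgeR's quasi-likelihood test). CFB, the protease of the alternative pathway convertase, was near 10 CPM with a log2 fold change of -0.01, and 78.4% of its 31-base stretches are shared, mainly with AL645922.1.

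Of the terminal components 1 of 5 tested was called. C8G codes for the gamma chain of C8, a lipocalin that is joined to the alpha chain in the complement pore, and lies at chr9:136945185-136946975 (GRCh38, plus strand). It was measured at 18.9, 17.7 and 15.9 CPM in NC and at 14.6, 13.2 and 13.7 CPM in ORF-Flag. The 3 ORF-Flag values lay below the 3 NC values, and NC replicate 3 was the nearest to them. The log2 fold change was -0.33 (standard error 0.08, 95% confidence interval -0.49 to -0.16, adjusted p = 0.0168 with edgeR's quasi-likelihood test). The call was lost without NC replicate 1, NC replicate 2, ORF-Flag replicate 2 or ORF-Flag replicate 3, where the edgeR adjusted p was 0.0549, 0.0741, 0.0732 and 0.0855.

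The genes of the other chains of C8 were not called. C8A, which codes for the alpha chain, had a log2 fold change of -0.02 and C8B, for the beta chain, one of 0.20 at between 15 and 40 counts. C5, the precursor of the anaphylatoxin C5a and of C5b, had the most counts of this role, with 170.4, 192.4 and 184.7 CPM in NC and 193.2, 195.3 and 186.5 CPM in ORF-Flag. The groups overlapped, since ORF-Flag replicate 3 lay below NC replicate 2, and the log2 fold change was 0.07 (adjusted p = 0.38 with edgeR's quasi-likelihood test). This value rests on single libraries, as it was 0.02 without NC replicate 1 and 0.11 without NC replicate 2. C6, which binds C5b, had a log2 fold change of -0.10. C9, which forms the wall of the pore, had at most 1 count in a library and was not tested.

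Among the soluble regulators C4BPA was called and its partner was not. C4BPA codes for the alpha chain of C4b-binding protein, a cofactor in the cleavage of C4b, and lies at chr1:207104262-207144972 (GRCh38, plus strand). It stood at 82.0, 83.7 and 82.0 CPM in NC and at 90.1, 94.7 and 88.6 CPM in ORF-Flag, with no overlap between the groups. The log2 fold change was 0.14 (standard error 0.04, adjusted p = 0.0455 with edgeR's quasi-likelihood test), a rise of 10.2%. The call was lost with DESeq2 (adjusted p = 0.0745), limma-voom (0.0564) and edgeR without TMM scaling (0.0559). It was also lost with edgeR when any library was left out, with an adjusted p of 0.0595, 0.106 and 0.051 without NC replicate 1, 2 or 3 and of 0.12, 0.228 and 0.0887 without ORF-Flag replicate 1, 2 or 3. C4BPB, the neighbouring gene for the beta chain, which binds protein S, had a log2 fold change of -0.01.

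CLU, clusterin, which holds the forming pore in solution, was not called. It had 285.4, 279.0 and 264.2 CPM in NC and 254.6, 263.0 and 244.6 CPM in ORF-Flag. The groups did not overlap, though NC replicate 3 and ORF-Flag replicate 2 were close. For CLU the fold change on the log2 scale was -0.12 ± 0.04 (standard error; adjusted p = 0.0585 with edgeR's quasi-likelihood test). Without NC replicate 3 the edgeR adjusted p was 0.00441, but with any other library left out it lay between 0.0667 and 0.325. With all libraries, edgeR called CLU with the replicate block (adjusted p = 0.0201) and without a filter on low counts (adjusted p = 0.0172). CFI, the protease that cleaves C3b and C4b, and VTN, vitronectin, had log2 fold changes of 0.03 and 0.07, and CFI shares 72.0% of its 31-base stretches with other loci, mainly AC126283.2. SERPING1, the C1 inhibitor, had between 2 and 13 counts and was not tested.

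The regulators on the cell membrane were not called. CD46, a cofactor for the cleavage of C3b, stood at 243.2, 249.9 and 250.3 CPM in NC and at 255.5, 251.7 and 253.2 CPM in ORF-Flag. Its groups did not overlap, with a log2 fold change of 0.03 and a 95% confidence interval from -0.03 to 0.10 (adjusted p = 0.658 with edgeR's quasi-likelihood test). CD55, which speeds the decay of the convertases, had a log2 fold change of 0.07. CD59, which stops C9 from joining the pore, had at most 2 counts. Genes that every cell uses were also near 0 in this table, with at most 4 counts for the proteasome gene PSMA2 and at most 5 for the tetraspanin gene CD81. Thus F9, PLG, KLKB1, C9, SERPING1 and CD59 can only be said to be listed at or near 0. RPS10 and SNRPD3, also used by every cell, were tested but had only 32 to 64 and 15 to 30 counts. Low counts of tested members such as F12, F13B, KNG1, PLAT, C8B and MASP1 thus need not mean low expression. These 4 comparison genes were chosen after their values were seen.

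RefSeq promoter windows (GRCh38.p14, 250 bases before to 50 bases after the start) were matched for 39 of the 50 members, among them 4 of the 5 called genes. They were searched on both strands for AP-1 (TGANTCA, in 7.71% of all 35116 windows), CRE (TGACGTCA, 1.85%), C/EBP (TTGCNNAA, 10.5%), a 6-letter part of the HNF1 site (GTTAAT, 6.88%), HNF4 (CAAAGTCCA, 0.384%) and the TATA box (TATAAA, 11.5%). A wider HNF4 form, CAAAGTNCA (1.10%), which includes the HNF4 letters, was added after the sequences were seen. Counting a gene when any of its windows held the letters, C/EBP was found in 12 of the 39 members, the HNF1 part in 11, the wider HNF4 form in 5, and AP-1, HNF4 and the TATA box in 2 each. CRE was found in 0. Over all 27305 genes with a window, the share by gene was 12.7% for C/EBP, 8.27% for the HNF1 part, 1.36% for the wider HNF4 form, 9.37% for AP-1, 0.472% for HNF4, 14.0% for the TATA box and 2.25% for CRE. By gene the members' shares were 30.8% for C/EBP, 28.2% for the HNF1 part and 12.8% for the wider HNF4 form, and 5.13% for AP-1, for HNF4 and for the TATA box, so those for AP-1, the TATA box and CRE were below the shares of all genes. Of the called genes, CPB2 held C/EBP on the minus strand from base -42, C4BPA held the HNF1 part from base -50, SERPIND1 held the wider HNF4 form from base -43, and TFPI held none of these letters. The 120 bases before the RefSeq start are shown for 2 called genes with a match, CPB2 and C4BPA, in capitals where the letters lie; positions count back from -1 at the last base before the start. In the order below they lie at chr13:46105034-46105153 (minus strand) and chr1:207104113-207104232 (plus strand), outside the spans given for the genes above. The RefSeq starts of SERPIND1 and TFPI lie inside the GENCODE 29 spans of the genes and differ from the starts there. The SERPIND1 match thus lies within the annotated gene and its bases are not shown, and the absence of a match for TFPI concerns this internal window.
CPB2: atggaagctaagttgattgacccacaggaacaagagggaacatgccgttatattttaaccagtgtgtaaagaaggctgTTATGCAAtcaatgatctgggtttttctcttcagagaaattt
C4BPA: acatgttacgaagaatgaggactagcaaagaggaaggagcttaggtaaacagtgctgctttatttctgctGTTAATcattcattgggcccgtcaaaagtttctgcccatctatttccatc
These matches describe the letters of the windows and were not tested against the changes in expression.

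Beyond the members, 63 other genes of the same systems were read from 4 lists, and 30 were tested. Of these, 5 were higher in ORF-Flag at an adjusted p below 0.05 with edgeR's quasi-likelihood test and 0 were lower, beside 2.47% and 1.98% of all tested genes. Of the 5, 4 are described here. F2RL1, the receptor PAR-2 that coagulation proteases cleave, had a log2 fold change of 0.37, from 25.6, 29.2 and 30.6 CPM in NC to 37.4, 37.7 and 35.8 CPM in ORF-Flag (adjusted p = 0.000916 with edgeR's quasi-likelihood test). ANXA2, an annexin that binds plasminogen and tissue-type activator at the cell surface, had one of 0.15 (edgeR adjusted p = 0.008), and it shares 43.8% of its 31-base stretches with other genes, mainly ANXA2P2. MCFD2, which carries factors V and VIII out of the endoplasmic reticulum with LMAN1, had one of 0.15 (edgeR adjusted p = 0.0217), and FGB, the fibrinogen beta chain, one of 0.14 (edgeR adjusted p = 0.0232). The groups did not overlap in any of these 4. The count of 5 was 3 without NC replicate 1, NC replicate 2 or ORF-Flag replicate 3, 2 without ORF-Flag replicate 1 or 2, and 8 without NC replicate 3. MCFD2 and FGB lost their call when any library but NC replicate 3 was left out. ANXA2 lost it without ORF-Flag replicate 1 or 2, while F2RL1 was called in each of these fits. Of the 30 other complement genes 6 were tested and 0 were called by edgeR, with 1 at an unadjusted p below 0.05. This was C1QBP, at a log2 fold change of -0.11 (edgeR adjusted p = 0.0523). DESeq2 and limma-voom called C1QBP, as did edgeR without TMM, without a filter on low counts or with the replicate block.

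Of 18 liver transcription factors and genes of the IL-6 response, 17 were tested and 0 were called by edgeR, with 3 at an unadjusted p below 0.05. DESeq2 and limma-voom also called 0, whereas limma-trend called 1, CEBPA, which had a log2 fold change of -0.31 and overlapping groups (edgeR adjusted p = 0.0521). Leaving out NC replicate 3 gave 2 calls, CEBPA and IL6ST, and leaving out ORF-Flag replicate 3 gave 1, CEBPA, as did edgeR without a filter on low counts. Of 11 hepatocyte and HepG2 markers, all tested, 3 were called, APOA2, KRT8 and KRT18, with log2 fold changes of 0.16, 0.12 and 0.16. None of the other 8 was called: 4 had positive values, SERPINA1 (0.09) and ALB (0.08) with groups that did not overlap and TTR (0.04) and AFP (0.03) with overlap, and 4 had negative values with overlap, APOB (-0.07), HNF4A (-0.05), APOA1 (-0.04) and TF (-0.01). The list summed to 29718, 30276 and 30813 CPM in NC and to 31164, 30807 and 30888 CPM in ORF-Flag, with APOB the most abundant at 7698 CPM, while TTR had a mean of 6.01 CPM. KRT18 shares 53.3% of its 31-base stretches with other genes, so its counts are uncertain. The part of these markers in the members' changes was not tested. Of 5 endothelial markers KDR and TEK were at 0, CDH5 had at most 1 count and VWF at most 13. PECAM1, the most abundant, had a mean of 4.36 CPM in NC and 5.70 CPM in ORF-Flag, and its groups did not overlap. Its log2 fold change was 0.39 (edgeR unadjusted p 0.0069, adjusted p = 0.0958). The list summed to 4.75, 4.16 and 5.01 CPM in NC and to 6.56, 5.51 and 6.26 CPM in ORF-Flag. The 5 macrophage and leukocyte markers, 2 of them tested, summed to 43.1, 38.1 and 38.8 CPM in NC and to 38.7, 38.5 and 40.5 CPM in ORF-Flag. Nearly all of this was CD68, which shares 93.7% of its 31-base stretches with other genes, and PTPRC and C1QA were at 0. The 5 stellate cell and fibroblast markers, 2 of them tested, summed to 71.2, 71.0 and 63.7 CPM in NC and to 72.0, 72.2 and 71.9 CPM in ORF-Flag, with ACTA2 the most abundant and DCN at 0. Of 4 platelet markers 1 was tested, ITGA2B, and PF4, GP9 and PPBP were at 0.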

How the data were processed

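RNA-Seq counts per gene of 6 HepG2 libraries were used as the authors deposited them, without normalization. The submitters' processing notes name cutadapt 1.11, HISAT2 2.1.0, featureCounts 1.6.0, edgeR and build GRCh38. The annotation release and the settings for strand and for reads that map to several places are not given in the sources used here, so counts of similar or overlapping genes are uncertain.

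A symbol was found for 20421 of the 20422 Ensembl identifiers after the version was removed. Groups and replicates were taken from the sample labels. Genes were filtered with filterByExpr, which kept 12386 of 20422, scaled by TMM and compared with glmQLFit and glmQLFTest (edgeR 4.0.16, R 4.3.3), two-sided, with Benjamini-Hochberg adjustment over all tested genes. Standard errors were derived from the F statistic. No pair of libraries within a group agreed within counting noise (chi-square per degree of freedom 2.39 to 5.23). Exon lengths, overlaps and transcripts came from GENCODE 29. The tests of single genes were tested on simulated data. Figures were drawn with matplotlib 3.10.9.

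The members and lists were chosen with earlier results of these data known. Named in full were members with an adjusted p below 0.05, C4A and C4B, and the member with the most normalized counts in each role; members with an unadjusted p below 0.05 were named with their fold change, members that failed the filter with their counts, and called genes of the lists, of which 1 is counted but not described. PLAT, SERPINC1, C1QBP, CEBPA, markers and fold changes of other members were added after their values were seen. Alternatives were DESeq2 1.42.0, limma-trend and limma-voom (limma 3.58.1), RLE size factors, no TMM, no filter, at least 10 counts in every library, a block for the replicate number, fits that omit 1 library, a call by unadjusted p and a fold change of more than 1.2, and C4A with C4B summed as 1 gene, which was added after seeing the data. The floor of 3 counts covers counting error only.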

Additional observations from a re-analysis of the deposited data

How the results depend on the processing

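The number of members called at an adjusted p below 0.05 was 5, and was 3 with DESeq2, 8 without a filter on low counts and 3 when called by unadjusted p with a fold change of more than 1.2; leaving out each library in turn gave between 2 and 7. All tested genes called were 551, and between 199 and 1058 with a library left out. They were 428 with DESeq2 (3.46%) and 824 without a filter (5.03%). Pathway genes beyond the members were 5, 1 by the fold change rule, and between 2 and 8 with a library left out. The members' median log2 fold change of 0.04 lay between 0.04 and 0.06 under its alternatives. Libraries with the same replicate number had correlations of 0.0666, 0.0266 and 0.0448 between their deviations from the group means. Each NC library correlated best with the ORF-Flag library of its own number, but none above 0.1, and ORF-Flag replicate 2 did so with NC replicate 3 (0.0304), so the numbers were not taken to pair the samples. With the replicate block 6 members, 731 genes and 6 pathway genes were called, CLU and C1QBP being the additions to the members and the pathway genes, with a median log2 fold change of 0.04. Without a filter C4A (-0.52), C4B (0.32) and CLU (-0.12) were called in addition. The sign of F5 changed with a library left out, with values between -0.0377 (without NC replicate 1) and 0.0383 (without NC replicate 2) and -0.0218 without ORF-Flag replicate 2, as did that of C4B, between -0.55 and 0.62, and that of C4B also in the sum with C4A, -0.13. Other members that were not called also moved with a library left out: C3 from -0.0293 to -0.000401, CD46 from 0.0196 to 0.0391, KNG1 from 0.155 to 0.355, SERPINF1 from 0.0269 to 0.0581 and SERPINF2 from -0.0820 to -0.0195. Among the 5 called members, TFPI was called under all 14 alternatives, SERPIND1 under 13, C8G under 10, CPB2 under 8 and C4BPA under 5, and each kept its direction under all 14. The 14 leave out the fold change rule, by which TFPI and C8G were called and SERPIND1, CPB2 and C4BPA were not. The cause of these differences was not tested. Standard errors were large for several members with few counts. They were 0.10 for CFB and C8A, with at most 320 and 269 counts, 0.14 for PLAUR, with at most 138, and 0.37 for MASP1, with at most 19. These were too large to show changes of the size called in CPB2 or C4BPA. The order by counts did not hold throughout: C4A and C4B had 0.17 and 0.27 with at least 716 and 490 counts.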
